A study of Mus musculus with 18 samples.

Results

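The genes described here are 8 transcriptional targets of p53 (*Cdkn1a*, *Mdm2*, *Ccng1*, *Bbc3*, *Sesn1*, *Sesn2*, *Phlda3* and *Trp53inp1*) and the senescence-associated genes *Cdkn2a* and *Cdkn2b*. They were chosen by name, 10 of the 38924 genes in the count table, and each of the 10 had enough counts to be tested. RNA of transplanted heart, kidney and tail fibroblasts (named HFs, KFs and TFs) was compared with that of cells kept in culture (named HFc, KFc and TFc), with 3 libraries in each of the 6 groups. The donors of all groups were male Rosa mT/mG mice on a C57BL/6 background, 10 weeks of age, whose cells carry a membrane-bound TdTomato reporter. Their cells grew for 10 days and were then placed, on gelatin foam, under the kidney capsule of C57BL6/J recipients, from which CD45−;TdTomato+ cells were sorted 3 days later. The cultured controls were the cells left over, replated for 3 more days. No sort is named for them in the sources used here, so transplantation and sorting cannot be told apart. The comparisons address how fibroblasts of 3 organs respond to the same site and whether they still differ there. That site was foreign to heart and tail cells, whereas for kidney cells it lay in their organ of origin.

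p53 is a transcription factor that is stabilised by DNA damage and other stresses. It activates genes that halt the cell cycle (*Cdkn1a*, which encodes the CDK inhibitor p21), limit p53 itself (*Mdm2*, a ubiquitin ligase), promote cell death (*Bbc3*, encoding Puma) or dampen growth signalling (the sestrins *Sesn1* and *Sesn2*, and *Phlda3*, an inhibitor of Akt). The neighbouring genes *Cdkn2a* and *Cdkn2b* encode the CDK4/6 inhibitors p16Ink4a and p15Ink4b, and *Cdkn2a* also encodes p19Arf, which stabilises p53. Their expression is known to accumulate in cultured and senescent fibroblasts.

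On GRCm38, in the GENCODE M21 annotation, *Cdkn2a* (ENSMUSG00000044303, chr4:89274471-89294653) and *Cdkn2b* (ENSMUSG00000073802, chr4:89306299-89311039) lie side by side on the minus strand of chromosome 4. The count for *Cdkn2a* joins p16Ink4a and p19Arf transcripts, so they cannot be told apart here. *Cdkn1a* (ENSMUSG00000023067) is at chr17:29090976-29100727 and *Ccng1* (ENSMUSG00000020326) at chr11:40748552-40755311. *Mdm2* (ENSMUSG00000020184) is at chr10:117688875-117710758 and *Phlda3* (ENSMUSG00000041801) at chr1:135766119-135769136. *Sesn2* (chr4:132492032-132510501) overlaps *Gm12981* on the same strand, and its count is uncertain to that extent. No other member overlaps an annotated gene.

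Because most members were chosen as targets of p53, the promoters of the set were searched for the motif that p53 binds. A p53 response element holds a pair of 10-base motifs, each of 3 purines, C, 2 bases that are A or T, G and 3 pyrimidines. In windows from 250 bases before to 50 bases after each annotated start (RefSeq, GRCm38.p6), read on both strands, this motif was present in 4 of the 14 windows of the 9 members matched (*Cdkn1a*, *Mdm2*, *Ccng1* and *Sesn1*) and in 8.36% of all 32851 windows. *Trp53inp1* was not matched. A pair with at most 13 bases between the motifs was present at 1 of the 2 annotated starts of *Cdkn1a* and in 0.0731% of all windows. The core CATG, which reads the same on both strands and can lie inside the motif, was present in windows of 5 members and in 61.1% of all windows. The stretches with the motif are given here because they hold the letters searched for, with the motif in capitals, 5′ to 3′ on the strand of the gene. A match is a description of the letters and not a measured p53 site.
*Cdkn1a*, chr17:29090861-29090978, plus strand, motifs starting 73 and 51 bases before the start: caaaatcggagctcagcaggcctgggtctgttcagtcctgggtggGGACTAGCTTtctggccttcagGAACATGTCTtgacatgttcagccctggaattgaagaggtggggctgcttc
*Mdm2*, chr10:117710890-117710989, minus strand, motif starting 186 bases before the start: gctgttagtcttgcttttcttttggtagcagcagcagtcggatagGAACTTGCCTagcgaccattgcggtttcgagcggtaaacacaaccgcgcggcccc
*Ccng1*, chr11:40755417-40755516, minus strand, motif starting 185 bases before the start: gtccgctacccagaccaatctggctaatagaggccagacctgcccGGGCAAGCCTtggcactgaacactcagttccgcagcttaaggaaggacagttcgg
*Sesn1*, chr10:41887221-41887320, plus strand, motif starting 173 bases before the start: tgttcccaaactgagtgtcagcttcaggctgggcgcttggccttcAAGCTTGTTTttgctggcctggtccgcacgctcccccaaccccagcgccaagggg

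The libraries held between 17927838 and 32245168 counts. KFs replicate 3 stood apart, since its *Xist* level was 1491 CPM and its summed level of 4 Y-linked genes 0.72 CPM, whereas the other libraries had at most 0.40 CPM of *Xist* and at least 174.9 CPM of the Y-linked genes. This goes against male donors for that library, and results that rest on it are given with and without it. Levels are counts scaled to a common library total after TMM normalization (CPM), and comparisons between genes use the same value per kilobase of exon (RPKM). A gene was called between transplanted and cultured cells at a Benjamini-Hochberg adjusted p under 0.05 in edgeR's quasi-likelihood test with a log2 fold change above 1 or below -1. Comparisons between organs and between responses used the adjusted p alone. Errors of levels are SD over 3 libraries and those of log2 fold changes are SE. In these bulk samples, fewer cells of a type and less RNA per cell cannot be told apart.

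**Figure D1:**
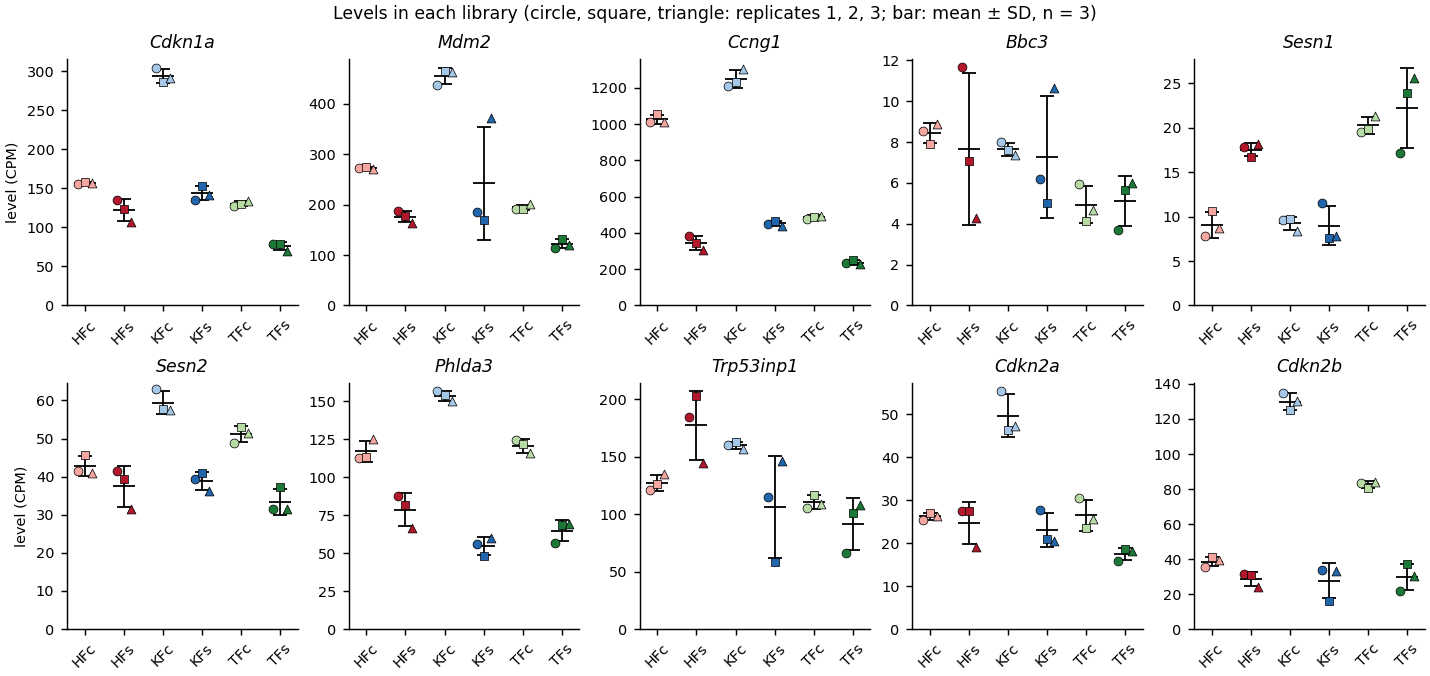
Level (CPM, linear axes from 0) of the 10 genes in each of the 18 libraries, by group, with the mean and SD over 3 libraries as black bars. KFc had the highest mean of *Cdkn1a*, *Mdm2*, *Ccng1*, *Sesn2*, *Phlda3*, *Cdkn2a* and *Cdkn2b*, and KFs replicate 3 lay above the other KFs libraries for *Mdm2*.

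Per kilobase of exon, *Ccng1*, which encodes the atypical cyclin G1, was the most abundant member in every group, from 67.5 RPKM in TFs to 355.4 RPKM in KFc. *Sesn1* and *Bbc3* were the least abundant in every group, at 2.26 to 5.58 RPKM and 2.32 to 3.98 RPKM. In KFc, *Cdkn2b* reached 93.5 RPKM, close to *Phlda3* (98.5 RPKM), *Mdm2* (89.6 RPKM) and *Cdkn1a* (82.8 RPKM), whereas in KFs its 19.9 RPKM was below the *Cdkn1a* level of 40.5 RPKM.

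Between transplanted and cultured cells, *Ccng1* passed both thresholds in all 3 comparisons, as did 291 of the 16577 genes tested (1.76%). By adjusted p alone, *Ccng1*, *Cdkn1a*, *Mdm2* and *Phlda3* were lower in all 3, as were 1807 genes (10.9%). No member was higher in all 3 by either measure, beside 878 genes (5.3%) by both thresholds and 1660 (10%) by adjusted p alone. Over the 10 members the median log2 fold change was -0.28 in heart, -0.97 in kidney and -0.64 in tail, beside 0.05, 0.09 and 0.00 over all genes tested.

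In kidney fibroblasts 5 of the 10 members fell (*Ccng1*, *Cdkn1a*, *Phlda3*, *Cdkn2a* and *Cdkn2b*), whereas 7.99% of all genes did, and no member rose, beside 14.7% of all genes. Without KFs replicate 3 the same 5 fell, by 1.49, 1.07, 1.61, 1.07 and 2.43 on the log2 scale in that order, and *Mdm2* made 6. In tail fibroblasts *Ccng1* and *Cdkn2b* fell, where 5.53% of all genes did, and no member rose, beside 11.0% of all genes. In heart fibroblasts only *Ccng1* fell, where 9.33% of all genes did, and no member rose, beside 18.3% of all genes. By adjusted p alone, 4 members were lower and 1 higher in heart (28.4% and 28.0% of all genes), 7 lower and none higher in kidney (22.7% and 26.1%), and 7 lower and none higher in tail (20.2% and 18.6%). Without HFc replicate 2, HFs replicate 1 or HFs replicate 2, the heart count was 2, because *Sesn1* then passed the limit upwards.

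**Figure D2:**
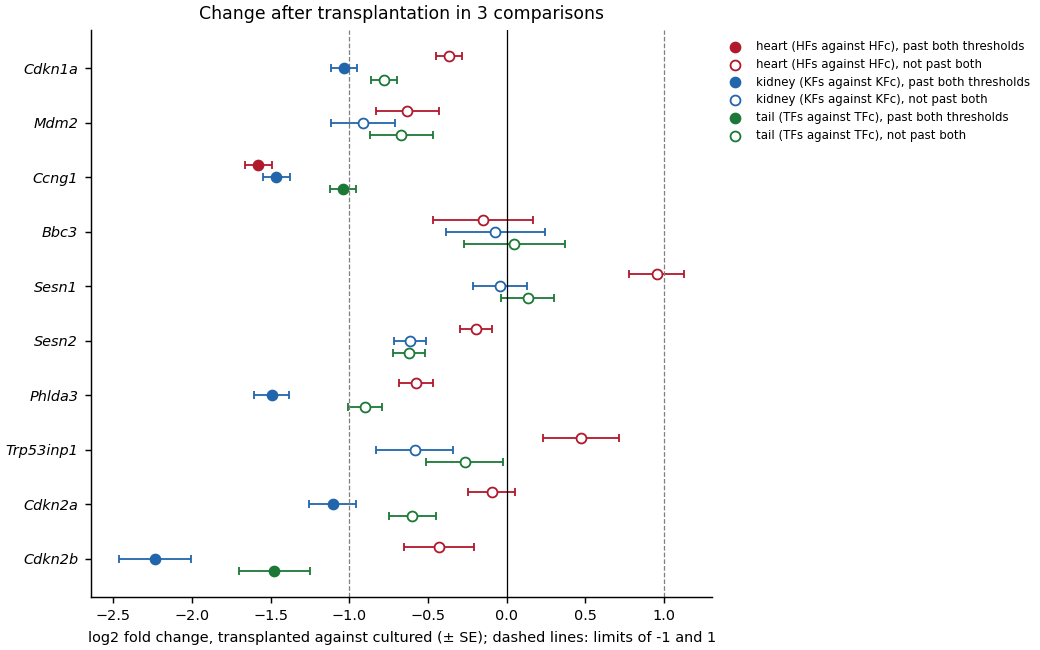
Log2 fold change of transplanted against cultured cells (x axis, ± SE) of the 10 genes in heart, kidney and tail fibroblasts. Filled points passed both the adjusted p of 0.05 and the limit of -1 or 1. *Ccng1* is filled in all 3 organs, *Cdkn2b* in kidney and tail, and *Sesn1* in heart lies at 0.95.

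Among the genes that act on the cell cycle, *Ccng1* fell in all 3 organs. Its levels were 1012, 1054 and 1014 CPM in HFc and 383.9, 344.5 and 303.8 CPM in HFs. They were 1209, 1230 and 1305 CPM in KFc and 449.3, 467.6 and 440.3 CPM in KFs. In tail cells they were 475.1, 490.1 and 495.3 CPM in TFc and 234.2, 250.4 and 226.2 CPM in TFs. Every transplanted library was below every cultured library of any organ, and neighbouring groups in the order KFc, HFc, TFc, KFs, HFs and TFs did not overlap. The log2 fold change was -1.58 ± 0.09 in heart (adjusted p = 2.35e-09), -1.46 ± 0.09 in kidney (adjusted p = 8.13e-09) and -1.04 ± 0.09 in tail (adjusted p = 3.48e-07).

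*Cdkn1a* had levels of 155.3, 158.5 and 157.6 CPM in HFc and 135.0, 123.9 and 107.5 CPM in HFs. In kidney cells they were 304.1, 286.5 and 292.2 CPM in KFc and 135.8, 153.5 and 142.2 CPM in KFs. In tail cells they were 127.4, 130.2 and 134.2 CPM and 79.0, 79.4 and 69.7 CPM. Transplanted and cultured libraries did not overlap in any organ, and all 3 KFc libraries were the highest of the series. In the order KFc, HFc, KFs, TFc, HFs and TFs, only TFc and HFs overlapped among neighbours. *Cdkn1a* fell in kidney by 1.03 ± 0.08 on the log2 scale (adjusted p = 1.60e-07). Without KFs replicate 1 the kidney value was -0.99, short of the limit. The changes in tail, -0.78 ± 0.08 (adjusted p = 4.52e-06), and heart, -0.36 ± 0.08 (adjusted p = 0.00157), passed the adjusted p only.

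*Mdm2*, the negative regulator of p53, had levels of 272.6, 274.0 and 271.5 CPM in HFc and 186.6, 178.2 and 163.8 CPM in HFs. In tail cells they were 191.6, 191.9 and 200.8 CPM and 114.6, 132.2 and 120.9 CPM. In kidney cells KFc had 437.2, 465.9 and 462.7 CPM, whereas KFs had 185.1 and 169.6 CPM in replicates 1 and 2 and 371.3 CPM in replicate 3. The groups of each organ did not overlap, and the wide spread of KFs came from replicate 3. *Mdm2* differed by adjusted p alone in heart (log2 fold change -0.63 ± 0.20, adjusted p = 0.0145), kidney (-0.91 ± 0.20, adjusted p = 0.00157) and tail (-0.67 ± 0.20, adjusted p = 0.0164). Without KFs replicate 3 the kidney value was -1.40 (adjusted p = 1.31e-09) and passed both thresholds.

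*Phlda3*, a repressor of Akt signalling, had levels of 112.9, 113.2 and 125.0 CPM in HFc and 87.9, 81.6 and 66.5 CPM in HFs. They were 156.4, 154.0 and 150.0 CPM in KFc and 55.8, 47.9 and 59.9 CPM in KFs. In tail cells they were 124.5, 121.7 and 115.6 CPM and 56.6, 68.6 and 68.9 CPM. KFc was the highest group and KFs the lowest by mean, though KFs and TFs overlapped. *Phlda3* fell in kidney by 1.49 ± 0.11 on the log2 scale (adjusted p = 6.26e-08), and passed the adjusted p alone in tail (-0.90 ± 0.11, adjusted p = 1.38e-05) and heart (-0.57 ± 0.11, adjusted p = 0.000329).

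The sestrins, which restrain mTORC1 signalling under stress, differed from each other. *Sesn1* had levels of 7.79, 10.66 and 8.69 CPM in HFc and 17.79, 16.74 and 18.14 CPM in HFs. In kidney cells it ranged from 8.40 to 9.70 CPM in KFc and 7.59 to 11.56 CPM in KFs, and in tail cells from 19.55 to 21.34 CPM in TFc and 17.12 to 25.65 CPM in TFs. Every HFs library was above every HFc library, and the groups of kidney and tail overlapped. The heart value was 0.95 ± 0.17 (adjusted p = 0.00026, under the fold-change limit), beside -0.04 ± 0.17 in kidney (adjusted p = 0.863) and 0.13 ± 0.17 in tail (adjusted p = 0.559). Without HFc replicate 2, HFs replicate 1 or HFs replicate 2 it was 1.09, 1.00 and 1.04, past the limit.

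Means of *Sesn2* were 59.4 ± 3.1 CPM in KFc against 38.9 ± 2.4 CPM in KFs, and 51.2 ± 2.1 CPM in TFc and 33.4 ± 3.3 CPM in TFs. Its heart means were 42.8 ± 2.6 CPM in HFc and 37.4 ± 5.3 CPM in HFs, with overlapping libraries. The log2 fold changes of kidney (-0.61 ± 0.10, adjusted p = 0.000154) and tail (-0.62 ± 0.10, adjusted p = 0.000232) passed the adjusted p alone, and that of heart did not (-0.19 ± 0.10, adjusted p = 0.119).

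*Bbc3* and *Trp53inp1*, which promote cell death, did not pass the test between transplanted and cultured cells of any organ when all libraries were used. *Bbc3* was the least counted member, with library levels between 3.69 and 11.66 CPM, and its groups overlapped in all 3 organs. Its log2 fold changes were -0.15 (95% interval -0.77 to 0.47) in heart, -0.07 (-0.69 to 0.55) in kidney and 0.05 (-0.58 to 0.68) in tail. Differences within these bounds are not excluded. The 95% intervals given in this text take the SE with a normal quantile and are somewhat narrower than the test implies. *Trp53inp1* had levels of 121.2, 126.1 and 134.9 CPM in HFc and 184.2, 202.7 and 144.4 CPM in HFs, without overlap. In KFs it spread from 58.6 to 146.3 CPM, all below the 156.6 to 162.5 CPM of KFc. The values were 0.48 ± 0.24 in heart (adjusted p = 0.106), -0.58 ± 0.24 in kidney (adjusted p = 0.0573) and -0.27 ± 0.24 in tail (adjusted p = 0.407). With KFs replicate 3 left out, the adjusted p of *Trp53inp1* was under 0.05 in kidney (-0.93 ± 0.23, adjusted p = 0.00338) and in heart (0.49 ± 0.20, adjusted p = 0.0442), both short of the fold-change limit.

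*Cdkn2b* showed the largest fold change of the members in kidney and tail. Its levels were 134.7, 124.9 and 130.3 CPM in KFc and 33.7, 16.1 and 33.3 CPM in KFs. In tail cells they were 83.3, 80.5 and 84.2 CPM in TFc and 21.7, 37.0 and 30.4 CPM in TFs, and in heart cells 35.6, 40.9 and 39.2 CPM in HFc and 31.2, 30.8 and 24.1 CPM in HFs. The cultured groups were separate, in the order KFc, TFc and HFc, whereas the 3 transplanted groups overlapped each other. The log2 fold change was -2.23 ± 0.23 in kidney (adjusted p = 1.72e-06), -1.48 ± 0.23 in tail (adjusted p = 0.000117) and -0.43 ± 0.22 in heart (adjusted p = 0.112). The kidney value was -2.43 without KFs replicate 3 (adjusted p = 9.20e-07).

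The KFc libraries had 55.4, 46.4 and 47.1 CPM of *Cdkn2a*, and the KFs libraries 27.6, 21.1 and 20.6 CPM. In tail cells they were 30.5, 23.5 and 25.6 CPM and 15.9, 18.6 and 18.1 CPM, and in heart cells 25.5, 27.1 and 26.3 CPM in HFc and 27.4, 27.5 and 19.1 CPM in HFs. KFc stood above all other groups, TFc, HFc, HFs and KFs followed with overlapping neighbours, and TFs was the lowest. *Cdkn2a* fell in kidney by 1.10 ± 0.15 on the log2 scale (adjusted p = 2.43e-05), passed the adjusted p alone in tail (-0.60 ± 0.15, adjusted p = 0.00562) and did not differ detectably in heart (-0.09, 95% interval -0.39 to 0.20).

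The size of the change was then compared between organs with interaction contrasts, the difference between log2 fold changes. Heart and kidney responses differed for 7 members, where 26.2% of all genes did, and the difference was positive for all 7, since their heart value was less negative or more positive. The widest was *Cdkn2b* at 1.80 ± 0.32 (adjusted p = 0.000813). For *Sesn2* (adjusted p = 0.0426) the call was lost in 8 of 12 fits that each left out 1 library, kept without HFc replicate 2, HFs replicate 3 and KFs replicates 2 and 3, with adjusted p up to 0.101. For *Trp53inp1* (adjusted p = 0.0322) it was lost without each HFc library, each KFc library or HFs replicate 2, with adjusted p up to 0.0694. The other 5 calls held in every such fit. Without KFs replicate 3, *Mdm2* also differed, by 0.79 (adjusted p = 3.85e-05) in place of 0.28 (adjusted p = 0.516), which made 8 members.

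Heart and tail responses differed for 5 members, where 22.8% of all genes did. *Ccng1* fell further in heart, by a difference of -0.54 ± 0.12 (adjusted p = 0.00469), and *Cdkn1a* had the smaller change in heart, by 0.42 ± 0.12 (adjusted p = 0.0186). Both held when single libraries were left out. *Cdkn2b* (1.05 ± 0.31, adjusted p = 0.0258) was lost without HFc replicate 1, TFc replicate 1 or TFs replicate 1 (adjusted p = 0.0612, 0.0501 and 0.0673). *Sesn1* (0.82 ± 0.24, adjusted p = 0.0239) was lost without HFc replicate 1 or 3, TFc replicate 3 or TFs replicate 1, at adjusted p between 0.0518 and 0.0665. *Sesn2* was lost without any one of 9 libraries, those other than HFc replicate 2, HFs replicate 3 and TFs replicate 2 (adjusted p up to 0.107). The count was 2 without HFc replicate 1 or TFs replicate 1, and 3 without HFc replicate 3 or TFc replicate 1 or 3. Without HFs replicate 3, *Phlda3* and *Cdkn2a* joined the calls (0.48, adjusted p = 0.0235, and 0.71, adjusted p = 0.0204). Without KFs replicate 3, whose spread enters the shared error, *Trp53inp1* was added (0.77, adjusted p = 0.049, in place of 0.74 and 0.132).

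Kidney and tail responses differed for *Ccng1* (-0.43 ± 0.12, adjusted p = 0.0320) and *Phlda3* (-0.60 ± 0.15, adjusted p = 0.0198), 2 of the 10, where 11.1% of all genes differed. The first was lost without any KFc library, TFc replicate 1 or TFs replicate 2 (adjusted p up to 0.0911), the other without TFs replicate 2 or 3 (0.0561 and 0.0548). Without TFs replicate 2 no member was called. There were 4 without KFs replicate 3, with *Mdm2* at -0.72 (adjusted p = 0.00014) and *Cdkn2b* at -0.94 (adjusted p = 0.0419) added. Without KFs replicate 1 *Cdkn2a* was added (-0.65, adjusted p = 0.0442).

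In culture KFc exceeded TFc in 6 members and was below it in *Sesn1*, 7 calls of 10 where 36.4% of all genes differed. The log2 differences were 1.36 ± 0.09 for *Ccng1*, 1.22 ± 0.20 for *Mdm2*, 1.17 ± 0.08 for *Cdkn1a* and 0.90 ± 0.15 for *Cdkn2a*, with adjusted p of 1.63e-08, 0.000246, 6.19e-08 and 0.00024, and -1.13 ± 0.17 for *Sesn1* (adjusted p = 0.000123). *Cdkn2b* (0.65 ± 0.22, adjusted p = 0.0292) was lost without any one of the 6 libraries compared, and *Phlda3* (0.35 ± 0.11, adjusted p = 0.0188) without KFc replicate 1 or 2 or TFc replicate 3. The highest adjusted p in these fits was 0.0744. Without KFs replicate 3, *Trp53inp1* was also called (0.56, adjusted p = 0.0346, in place of 0.53 and 0.0988).

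HFc was below KFc in 7 members (*Cdkn1a*, *Mdm2*, *Ccng1*, *Sesn2*, *Phlda3*, *Cdkn2a* and *Cdkn2b*), where 29.2% of all genes differed, with *Cdkn2b* at -1.75 ± 0.23 (adjusted p = 2.69e-05) and *Cdkn2a* at -0.92 ± 0.15 (adjusted p = 0.000254). *Ccng1* (-0.28 ± 0.08, adjusted p = 0.0194) was lost without HFc replicate 1 or 3 or KFc replicate 3, with adjusted p up to 0.0804. HFc differed from TFc in 4 members, where 41.9% of all genes did, with *Ccng1* (1.08 ± 0.09) and *Cdkn1a* (0.27 ± 0.08) higher and *Cdkn2b* (-1.10 ± 0.22) and *Sesn1* (-1.16 ± 0.17) lower. The call of *Cdkn1a* (adjusted p = 0.0166) was lost without TFc replicate 1 or 2 (0.0609 and 0.0608). Without KFs replicate 3, whose spread enters the shared error, 7 members were called, and without HFc replicate 2 *Sesn2* was added (-0.31, adjusted p = 0.0496).

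After transplantation KFs exceeded TFs in *Ccng1* (0.93 ± 0.09), *Cdkn1a* (0.92 ± 0.08) and *Mdm2* (0.98 ± 0.20, and 0.53 without KFs replicate 3) and was below it in *Sesn1* (-1.31 ± 0.17). These were 4 calls of 10, where 29.1% of all genes differed, and all 4 held when single libraries were left out. Without KFs replicate 3, 2 more were called, *Phlda3* (-0.32, adjusted p = 0.0400) and *Cdkn2a* (0.47, adjusted p = 0.0320). *Phlda3* was also called without TFs replicate 1 (-0.34, adjusted p = 0.0363). HFs exceeded TFs in *Cdkn1a* (0.68 ± 0.08), *Ccng1* (0.54 ± 0.08), *Trp53inp1* (0.95 ± 0.24) and *Cdkn2a* (0.49 ± 0.15), where 23.1% of all genes differed. *Trp53inp1* was lost without TFs replicate 1 (adjusted p = 0.0531) and *Cdkn2a* without any of these 6 libraries except HFs replicate 3 (adjusted p up to 0.109), so that 2 calls were left without TFs replicate 1. Without HFs replicate 3 there were 7, with *Bbc3*, *Sesn2* and *Phlda3* added. Without KFs replicate 3, *Mdm2* (0.54, adjusted p = 1.46e-05) and *Phlda3* (0.29, adjusted p = 0.038) joined the calls of HFs against TFs. With all libraries *Mdm2* stood there at 0.52 (adjusted p = 0.0754), and its HFs and TFs libraries did not overlap.

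HFs and KFs differed in 5 members, where 33.2% of all genes did. *Sesn1* (0.97 ± 0.17, adjusted p = 0.00067), *Trp53inp1* (0.73 ± 0.24, adjusted p = 0.0295) and *Phlda3* (0.53 ± 0.11, adjusted p = 0.00171) were higher in HFs, and *Ccng1* (-0.39 ± 0.08, adjusted p = 0.0023) and *Cdkn1a* (-0.24 ± 0.08, adjusted p = 0.0386) lower. *Cdkn1a* was lost without HFs replicate 2 or 3 or KFs replicate 2, and *Trp53inp1* without HFs replicate 1 or 2 or KFs replicate 2, with adjusted p up to 0.231 and 0.0876. Without HFs replicate 2 the count was 3. *Mdm2* was called without KFs replicate 1 or 2 (-0.62 and -0.64), and stood at 0.00 without KFs replicate 3. *Cdkn2b* did not differ detectably between any pair of transplanted groups, with log2 differences of -0.11, -0.05 and 0.05 (SE 0.22 each).

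Beyond the 10 genes, 31 other known p53 targets were tested. In heart 13 fell and 1 rose, in kidney 4 fell and none rose, and in tail 3 fell and none rose, and without KFs replicate 3 the kidney count was 8. Of all genes tested, 9.33%, 7.99% and 5.53% fell in heart, kidney and tail. The shares that rose were 18.3%, 14.7% and 11.0%, and both sets of shares also stand beside the lists below. By adjusted p alone 20, 18 and 18 were lower, beside 28.4%, 22.7% and 20.2% of all genes. There 2, 2 and 5 were higher, beside 28.0%, 26.1% and 18.6%. The median log2 fold change was -0.54 in heart, -0.61 in kidney and -0.62 in tail. Without KFs replicate 3 the kidney median was -0.82, and 25 were lower and 2 higher by adjusted p alone. *Pmaip1*, which encodes the death-promoting protein Noxa, was the 1 gene that fell in all 3, by 1.57 ± 0.18, 1.31 ± 0.17 and 1.04 ± 0.19 on the log2 scale, and without TFs replicate 2 its tail value was -0.92, short of the limit. By adjusted p alone 12 of the 31 were lower in all 3, *Bax* among them. *Btg2*, an antiproliferative gene, was the 1 that was higher in all 3. Of all genes tested, 1.76% fell in all 3 by both thresholds. By adjusted p alone 10.9% were lower and 10% higher in all 3, and these shares also stand beside the lists below. *Bax*, a mediator of cell death, went from 64.8 ± 0.5 to 20.9 ± 1.1 CPM in heart, and *Btg2* from 51.9 ± 1.7 to 199.5 ± 16.3 CPM. Both were chosen after their values were seen.

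**Figure D3:**
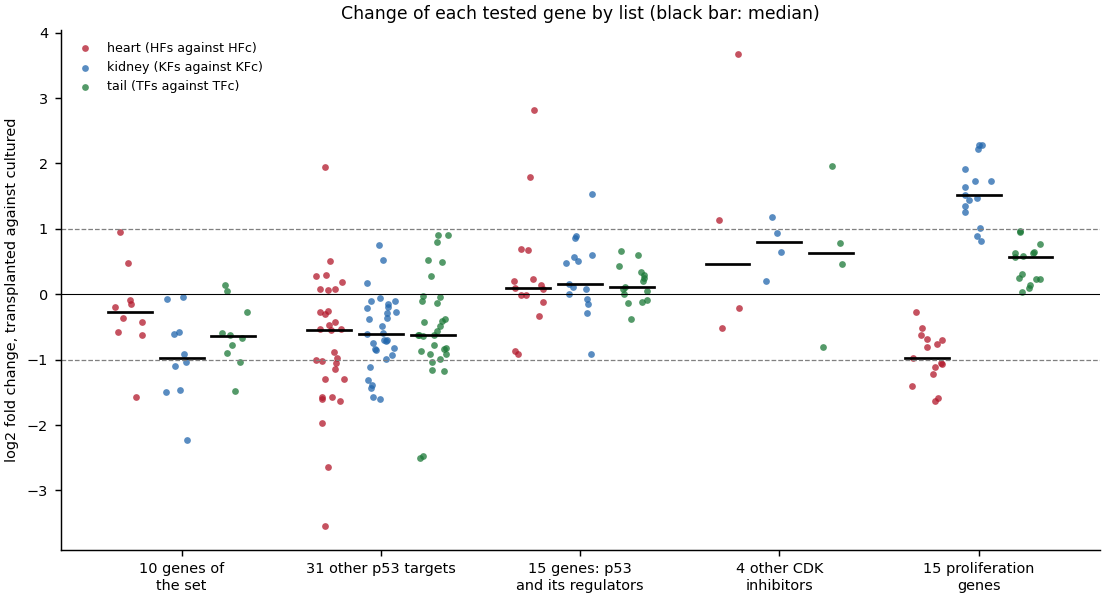
Log2 fold change (y axis) of each tested gene in 5 lists, in heart, kidney and tail fibroblasts, with medians as black bars. The other p53 targets have medians of -0.54, -0.61 and -0.62, and the proliferation genes medians of -0.98, 1.52 and 0.57. Without KFs replicate 3 the kidney medians of these lists were -0.82 and 1.68.

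*Trp53* itself, which encodes p53, had levels of 55.7, 48.7 and 44.8 CPM in HFc and 27.9, 24.7 and 26.5 CPM in HFs. The other 12 libraries lay between 32.2 and 46.4 CPM. The 3 HFs libraries lay below all others, and the heart difference of -0.92 ± 0.12 (adjusted p = 1.01e-05) passed the adjusted p alone. In kidney it was 0.00 ± 0.12 and in tail 0.11 ± 0.12 (adjusted p = 1 and 0.482). *Mdm4*, which binds and inhibits p53, rose in heart from 27.0 to 31.03 CPM over the HFc libraries to 91.5 to 108.4 CPM in HFs (1.79 ± 0.11, adjusted p = 8.16e-09) and passed the adjusted p alone in kidney (0.90 ± 0.11) and tail (0.60 ± 0.11).

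Of the 15 tested genes for p53 and its regulators, 2 rose in heart (*Mdm4* and *Trp63*), 1 in kidney (*Chek1*, a checkpoint kinase, 1.53 ± 0.22) and none in tail, and none fell, except that *Hipk2* fell in kidney without KFs replicate 3. *Trp63*, a p53 relative, was at most 1.14 CPM in any library. By adjusted p alone 4 were higher and 3 lower in heart, 6 and 2 in kidney and 3 and 1 in tail. *Atm*, the kinase that signals DNA breaks, was higher by adjusted p in all 3 (0.67, 0.87 and 0.66, SE 0.08 each), as was *Mdm4*, and *Rchy1*, a ubiquitin ligase for p53, was lower (-0.34, -0.28 and -0.37, SE 0.08 each). *Trp53bp1*, a DNA damage response factor, was higher in heart (0.69 ± 0.12) and kidney (0.57 ± 0.12), and the kinase *Hipk2* was lower there (-0.86 ± 0.16 and -0.91 ± 0.16). *Usp7*, a deubiquitinase of Mdm2, was higher in kidney (0.60 ± 0.07) and tail (0.43 ± 0.07), and *Atr* in kidney (0.48 ± 0.12). *Chek2*, *Cop1*, *Crebbp*, *Ep300* and *Kat5* passed no test, with values between -0.15 and 0.21.

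Of the 4 other CDK inhibitors, 2 rose in heart, 1 in kidney and 1 in tail, and none passed both thresholds downwards. *Cdkn1b*, which encodes p27, had 32.9 ± 1.6 CPM in HFc and 72.3 ± 6.0 CPM in HFs, 20.3 ± 2.0 in KFc and 46.0 ± 17.6 in KFs, and 39.7 ± 3.3 in TFc and 54.7 ± 3.2 in TFs. It rose in heart (1.13 ± 0.20, adjusted p = 0.000206) and kidney (1.18 ± 0.20, adjusted p = 0.000209), and its tail value was 0.46 ± 0.20 (adjusted p = 0.0774). Without KFs replicate 1 the kidney value was 0.93, short of the limit, whereas without KFs replicate 3 the call was kept. KFs replicates 1 to 3 had 60.8, 50.8 and 26.5 CPM, above the 18.2 to 22.3 CPM of KFc. *Cdkn1c*, encoding p57, rose in heart (3.68 ± 0.72) and tail (1.96 ± 0.61, adjusted p = 0.0195) from low levels of 0.31 and 2.50 CPM. The tail call was lost without TFc replicate 2 or 3 or TFs replicate 2 or 3 (adjusted p between 0.0511 and 0.0712). *Cdkn2c* passed the adjusted p alone in kidney (0.65 ± 0.24) and tail (0.78 ± 0.23), and *Cdkn2d* in tail (-0.81 ± 0.27).

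Of 15 genes for D cyclins, CDK4/6, RB and E2F, 5 fell and 1 rose in heart, 2 fell and 1 rose in kidney (2 and 3 without KFs replicate 3), and 3 fell and 1 rose in tail. The D cyclins *Ccnd1* and *Ccnd2*, partners of the kinases that p15Ink4b and p16Ink4a inhibit, fell in all 3. *Ccnd1* fell by 2.89 ± 0.12, 1.13 ± 0.11 and 1.02 ± 0.11 and *Ccnd2* by 1.60 ± 0.16, 1.56 ± 0.16 and 1.17 ± 0.16 on the log2 scale in heart, kidney and tail. Without TFs replicate 1 the tail value of *Ccnd1* was -0.92, and with DESeq2 or its size factors it was -0.99 and -0.98, each short of the limit. Of 14 tested regulators and neighbours of the *Cdkn2a* and *Cdkn2b* locus, 1 rose and 1 fell in heart, none passed both thresholds in kidney and 2 rose in tail, and by adjusted p alone 5 were higher and 4 lower in heart, 7 and none in kidney, and 3 and 3 in tail. *Mtap*, a gene of the same neighbourhood that was chosen after its values were seen, had log2 fold changes of -0.73 ± 0.11, -0.12 ± 0.11 and -0.60 ± 0.11.

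Among 9 other senescence-associated genes, 3 rose in heart, 6 in kidney (7 without KFs replicate 3) and 6 in tail. The list was drawn up without regard to the direction of a gene in senescence, so these counts do not measure senescence. The kidney and tail counts include *Lmnb1* and *Hmgb2*, and the kidney count also *Hmgb1*, all chosen after their values were seen. The secreted factors *Cxcl1*, *Igfbp3* and *Mmp3* rose in all 3 organs. *Cxcl1* rose from 3.93 ± 1.59 to 74.6 ± 25.0 CPM in heart, 1.45 ± 0.53 to 76.8 ± 24.9 CPM in kidney and 6.39 ± 0.29 to 84.3 ± 33.6 CPM in tail. *Mmp3* was 85.7 and 66.3 CPM in KFs replicates 1 and 2 and 0.76 CPM in replicate 3, below the 2.02 to 3.49 CPM of KFc. *Igfbp3* was 182.3, 73.9 and 15.1 CPM in KFs and 12.4 to 13.9 CPM in KFc.

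Of 15 proliferation genes, 7 fell in heart, 13 rose in kidney (also without KFs replicate 3) and none passed both thresholds in tail, where 2 were higher by adjusted p alone. Their summed level was 754.4 to 817.3 CPM in HFc and 401.7 to 553.5 CPM in HFs, 299.8 to 308.7 CPM in KFc and 692.7 to 1423 CPM in KFs, and 508.8 to 542.1 CPM in TFc and 524.3 to 1206 CPM in TFs. KFc had the lowest sums of the series together with the highest *Cdkn1a*, *Cdkn2a* and *Cdkn2b* levels. KFs replicate 2, with the highest sum, had the lowest *Cdkn2b* level at 16.1 CPM, but its 153.5 CPM of *Cdkn1a* was the highest of KFs. The part of proliferation in these differences was not tested.

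**Figure D4:**
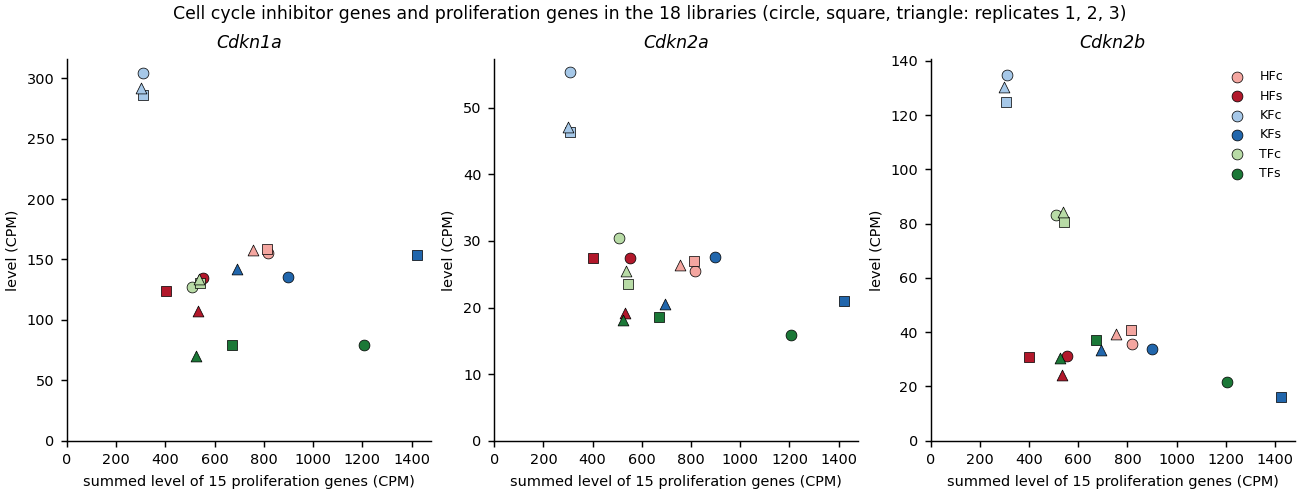
Level (CPM, y axes) of *Cdkn1a*, *Cdkn2a* and *Cdkn2b* against the summed level of 15 proliferation genes (CPM, x axes) in the 18 libraries, coloured by group. The 3 KFc libraries sit at 299.8 to 308.7 CPM of proliferation genes and above all others for each of the 3 inhibitors.

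Genes of other cell types also differed between transplanted and cultured cells. The 10 proximal tubule markers summed to 19.5 to 24.98 CPM in HFc and TFc, 103.3 to 111.5 CPM in KFc, and 118.2 to 1186 CPM in HFs, 59.5 to 126.2 CPM in KFs and 138.5 to 320.4 CPM in TFs. All 10 rose in heart and tail and 8 in kidney (7 without KFs replicate 3). The defining genes *Slc34a1* and *Kap* were at 0 in every HFc and KFc library. The 7 leukocyte and macrophage markers summed to 382.0 to 400.2 CPM in KFc and 11.6 to 137.0 CPM in KFs, 166.8 to 195.4 CPM in TFc and 36.3 to 42.3 CPM in TFs, and 80.3 to 93.7 CPM in HFc and 84.3 to 146.8 CPM in HFs. Of these, 4 fell in kidney and in tail, where the *Cdkn2* genes were lower, and none changed in heart. Only the transplanted cells are known to have been sorted as CD45−, so transplantation and that sort cannot be told apart for these markers. The 6 endothelial markers were at most 107.9 CPM in sum. Of these, 4 were higher in heart, 3 higher and 1 lower in kidney and 3 higher in tail. Without KFs replicate 3, 2 were higher and none lower in kidney. The 5 erythroid markers were at 0 in every cultured library and at most 42.5 CPM in sum after transplantation. The 10 fibroblast markers, none at 0, summed to 41250 to 44000 CPM in HFc and 98500 to 161500 CPM in HFs, and to 35790 to 36130 CPM in TFc and 46020 to 50920 CPM in TFs. In kidney cells they summed to 22130 to 23430 CPM in KFc and 103700, 80290 and 30120 CPM in KFs replicates 1 to 3, the last library being the lowest of KFs. Of these markers, 6 rose and 2 fell in heart, 6 rose in kidney and 5 rose and 1 fell in tail. The part of other cells in the levels of the 10 genes was not tested.

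Over the 18 libraries, which share their groups, the genes outside the set whose log2(CPM + 1) followed each of 3 members most closely were ranked by Pearson's r. For *Cdkn1a* they were *Tspan2* (0.97), *Csrp1* (0.97) and *Metrnl* (0.96). For *Cdkn2a* they were *Pdlim5* (0.96), *Adrb3* (0.94) and *Limk2* (0.93), and *Pdlim5* had 500.9 CPM in KFc and between 156.9 and 243.6 CPM in the other group means. For *Ccng1* they were *Kif5b* (0.99), *Atp6v0c* (0.98) and *Smim15* (0.98), with *Kif5b* at 658.9, 673.4 and 322.3 CPM in HFc, KFc and TFc and 239.6, 292.9 and 160.8 CPM in HFs, KFs and TFs. These coefficients describe the order of the group levels and carry no p-value.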

How the data were processed

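The authors deposited expected counts per gene for the 18 libraries, one column each, without normalization. According to the study's methods, stranded libraries were read from one end over 75 bases and counted with RSEM and Bowtie2 on GRCm38, whereas the submitters' processing notes name Bowtie, RSEM and mm9. The annotation release is not given in the sources used here. The values are whole numbers and were used as they stand. GENCODE M21 gave symbols for 37607 of the genes.

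The quasi-likelihood test of edgeR 4.0.16 (filterByExpr, TMM, glmQLFit, glmQLFTest; R 4.3.3) was fitted to the 18 libraries together, each group having its own mean, with Benjamini-Hochberg adjustment over 16577 genes. The method was tested on simulated data. RPKM values used exon lengths of GENCODE M21. Nothing says that the libraries of a group came from separate animals, beyond the paper calling them biological replicates, so p-values measure the spread between these libraries. The members, gene lists and tests were chosen with earlier results of these data known. Besides the members, genes named are those of each list that passed both thresholds in all 3 transplant comparisons in 1 direction, all tested genes for p53, its regulators and other CDK inhibitors, and the 3 genes most like *Cdkn1a*, *Cdkn2a* and *Ccng1*. A result under this rule is not reported here. Alternatives were DESeq2 1.42.0, its size factors or library size alone, filtering on a mean of 10 counts or not at all, a replicate block, only the groups compared, other thresholds and each library left out.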

Additional observations from a re-analysis of the deposited data

Results flagged for a closer look

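Members are given here because their change after transplantation differed between organs in a test of the difference itself (edgeR interaction contrast, Benjamini-Hochberg adjusted p under 0.05). Between heart and kidney, the log2 fold change of heart minus that of kidney was 1.80 for *Cdkn2b*, 1.06 for *Trp53inp1*, 1.01 for *Cdkn2a*, 1.00 for *Sesn1*, 0.92 for *Phlda3*, 0.67 for *Cdkn1a* and 0.42 for *Sesn2*. Between heart and tail, the difference was 1.05 for *Cdkn2b*, 0.82 for *Sesn1*, 0.43 for *Sesn2*, 0.42 for *Cdkn1a* and -0.54 for *Ccng1*, the last being the member with the larger fall in heart. Between kidney and tail, it was -0.60 for *Phlda3* and -0.43 for *Ccng1*.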

How the results depend on the processing

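Under the alternatives, 410 of 440 log2 fold changes of a member in a transplant comparison kept their direction and their side of the thresholds. Another 18 came to pass. These were *Sesn1* in heart, *Mdm2* in kidney without KFs replicate 3, and members that passed the adjusted p alone once the fold-change limit was dropped. The 2 that no longer passed were *Cdkn1a* in kidney, at -0.98 with library size alone and -0.99 without KFs replicate 1. The other 10 changed sign, each for a gene that passed no test. The changes of sign were *Bbc3* in heart (0.19) and *Cdkn2a* in heart (0.11) without HFs replicate 3, *Bbc3* in kidney with library size alone (0.0089) and without KFs replicate 1 (0.029) or 2 (0.089), *Sesn1* in kidney without KFs replicate 2 (0.0225) or 3 (0.0027), and *Bbc3* in tail without TFc replicate 2 (-0.0749), TFs replicate 2 (-0.0269) or TFs replicate 3 (-0.0815). The count of members called in heart was 2 with DESeq2, with its size factors and with only the groups compared, in each case through *Sesn1*, and 5 by adjusted p alone, which gave 7 in tail. With a log2 fold-change limit of 1, the counts were 3 for the heart and kidney responses, 1 for heart and tail, 0 for kidney and tail, 4 for KFc against TFc, 1 for HFc against KFc, 0 for HFs against TFs, 1 for KFs against TFs and 0 for HFs against KFs. Library size alone gave 3 for the heart and tail responses and 0 for kidney and tail, and no filter gave 1 for the latter. With only the groups compared, 8 members differed between HFc and TFc and 1 between HFs and KFs. Under that setting the call of *Mdm2* between KFs and TFs was lost (0.98, adjusted p = 0.106). When single libraries were left out, the counts ran from 1 to 2 in heart, 4 to 6 in kidney and 2 to 2 in tail, from 5 to 8, 2 to 7 and 0 to 4 for the heart and kidney, heart and tail, and kidney and tail responses, and from 6 to 7 (HFc and KFc), 3 to 7 (HFc and TFc), 5 to 8 (KFc and TFc), 3 to 6 (HFs and KFs), 2 to 7 (HFs and TFs) and 4 to 6 (KFs and TFs). For the genes that changed sign, the values without single libraries ran from -0.5204 to 0.19 (*Bbc3*) and -0.1317 to 0.11 (*Cdkn2a*) in heart, -0.495 to 0.089 (*Bbc3*) and -0.2612 to 0.0225 (*Sesn1*) in kidney, and -0.0815 to 0.2321 (*Bbc3*) in tail. The list counts without KFs replicate 3 were added after the data were seen.

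Same-numbered libraries of an organ did not deviate together (correlations from -0.042 to 0.045), so the numbers were not taken as pairs. With the replicate number as a replicate block, the counts of members called were 1, 5 and 2 in heart, kidney and tail, 7, 5 and 2 for the responses, and 7, 5, 7, 5, 4 and 4 for HFc and KFc, HFc and TFc, KFc and TFc, HFs and KFs, HFs and TFs, and KFs and TFs. The block added *Sesn2* between HFc and TFc and changed no other call.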
